A study of Mus musculus with 21 samples.

Results

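The aryl hydrocarbon receptor gene Ahr and its classical target genes Cyp1a1 and Cyp1b1 were followed in B16-F10 cells, a pigmented mouse melanoma line of C57BL/6J origin. The array carried 5 probe sets that name 1 of these 3 genes and no other (1 for Ahr and 2 each for Cyp1a1 and Cyp1b1), of 10833 single-gene probe sets for 8251 genes. The trio was chosen by measured values: Ahr was picked because its signal was higher in hypoxia and lower with cobalt than in the controls. Those contrasts are therefore given for Ahr as a description, without a test. Cyp1a1 and Cyp1b1 were taken along as known targets of the receptor.

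RNA was measured on 21 Affymetrix U74Av2 arrays. Hypoxia meant 24 h at 1% oxygen, in a Billups-Rothenberg chamber (the chamber set) or in an incubator with regulated oxygen flow (experiments 1 and 2), with 3 hypoxia arrays and 2 control arrays at 21% oxygen in each set. Experiment 3 held 2 control arrays at 21% oxygen. It also held 2 arrays after 24 h with 100 µM cobalt chloride (CoCl2, used as a chemical mimic of hypoxia) and 2 after 24 h with 200 µM. The labels give no oxygen level for the CoCl2 arrays. The 9 groups were cultures of 1 cell line in serum-containing medium with no added receptor ligand named in the labels, and the time in culture of the controls is not given. The 2 controls whose titles name no experiment were taken as the chamber controls, since the chamber hypoxia titles name none either. The labels call the arrays of a group biological replicas without saying that each was a separate culture, so p-values measure only the spread between these arrays.

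The aryl hydrocarbon receptor is a transcription factor of the bHLH-PAS family that waits in the cytoplasm in a chaperone complex until a ligand, such as a dioxin, a polycyclic aromatic hydrocarbon or a tryptophan derivative, releases it into the nucleus. There it pairs with ARNT, the same partner that the hypoxia-inducible factors (HIF) use, and binds short DNA motifs in front of genes such as CYP1A1, CYP1B1, TIPARP and AHRR. TIPARP and the receptor repressor AHRR in turn damp the receptor, and in skin a tryptophan photoproduct formed under ultraviolet light is a known ligand.

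The stretches just upstream of the transcription start of both target genes, and of Tiparp, a further receptor target that rose in hypoxia and with CoCl2, are printed because the receptor's core motif (GCGTG, read as CACGC on the other strand) lies in each. Both strands were searched over the 250 bases before the start, in RefSeq sequence of build GRCm38.p6. The sequences run 5′ to 3′ on the strand of the gene, with the core motif in capitals.
Cyp1a1: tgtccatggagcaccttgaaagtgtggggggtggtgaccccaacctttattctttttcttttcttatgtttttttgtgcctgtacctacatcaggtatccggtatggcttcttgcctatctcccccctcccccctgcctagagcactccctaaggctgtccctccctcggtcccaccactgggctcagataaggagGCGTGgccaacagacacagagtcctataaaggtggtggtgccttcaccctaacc
Cyp1b1: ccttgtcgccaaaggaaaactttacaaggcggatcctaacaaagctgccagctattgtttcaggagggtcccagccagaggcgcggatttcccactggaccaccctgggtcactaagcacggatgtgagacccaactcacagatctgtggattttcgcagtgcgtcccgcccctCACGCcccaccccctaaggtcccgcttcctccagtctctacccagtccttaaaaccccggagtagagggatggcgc
Tiparp: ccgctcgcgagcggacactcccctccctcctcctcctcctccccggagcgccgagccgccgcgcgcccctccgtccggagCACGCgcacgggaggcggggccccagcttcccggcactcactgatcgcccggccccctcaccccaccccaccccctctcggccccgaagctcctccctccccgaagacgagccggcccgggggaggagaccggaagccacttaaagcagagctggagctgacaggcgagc
The Cyp1a1 window is chr9:57697363-57697612 on the plus strand, and its match begins 54 bases before the start site. The Cyp1b1 window is chr17:79715062-79715311 on the minus strand, and its match begins 76 bases before the start, on the strand opposite to the gene. The Tiparp window is chr3:65528197-65528446 on the plus strand, with its match 170 bases before the start, also on the opposite strand. The core motif occurred in 28.2% of 32851 promoter windows of this length, so a match describes the window and no more. The Ahrr window held 3 matches, the Arnt window 1 and the Nqo1 window 0. The HIF core motif ACGTG, also searched on both strands and found in 16.6% of the windows, occurred in 0 of the 6 windows examined. Promoters beyond these windows were not searched, and the window of Ahr was not analysed here.

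Array medians lay between 5.44 and 5.53 on the log2 scale, and pairs of arrays within a group had correlations of 0.980 to 0.998 over genes, which are not independent replicates. The signal of Actb at its 3′ end minus that at its 5′ end, a measure of RNA quality that grows as RNA is degraded, spanned 0.15 to 0.50 on the log2 scale over the 15 chamber and incubator arrays and 0.50 to 2.36 over the 6 arrays of experiment 3. Of 10 melanocyte markers 8 were measured, and 7 of those lay above the median probe set, among them the pigment enzyme gene Tyr. Their summed log2 level was 69.7 to 70.9 in the 6 controls of the hypoxia sets, 68.0 to 70.0 in the 9 hypoxia arrays, 69.3 to 70.7 in the controls of experiment 3 and 49.5 to 59.6 in the 4 CoCl2 arrays. The sum hides opposite changes in the hypoxia mean, where 1 of the 8 rose (Mitf) and 3 fell (Pmel, Gpr143 and Kit). Among all genes 12.6% rose and 19.5% fell there. Summed markers of fibroblasts (37.2 to 41.0 over all arrays, 7 genes), leukocytes (26.6 to 29.5, 6 genes), endothelium (24.9 to 27.2, 6 genes), epithelium (26.2 to 28.7, 6 genes) and hepatocytes (24.8 to 27.2, 5 genes) spanned narrower ranges, and with CoCl2 4 of the 6 epithelial, 2 fibroblast, 1 leukocyte, 1 endothelial and 1 hepatocyte marker rose while all 8 melanocyte markers fell, beside 23.3% of all genes that rose and 23.0% that fell. No marker was at 0, since RMA gives every probe set a value. The part of RNA quality and of the lower melanocyte markers in the results on CoCl2 was not tested beyond the fit with the Actb value given below.

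Ahr was low in the controls of the hypoxia sets and high in the hypoxia arrays, and with CoCl2 it was lower than in the controls of experiment 3. In the chamber set the log2 level was 4.0 and 3.94 in the controls and 6.17, 6.29 and 6.72 in hypoxia. Experiment 1 gave 4.15 and 3.92 for its controls and 6.56, 7.0 and 6.71 for hypoxia. Experiment 2 gave 3.59 and 3.83 for its controls and 7.12, 7.20 and 7.02 for hypoxia. Each of the 9 hypoxia arrays lay above each of the 6 controls of these sets. Ranked among the probe sets of its array, Ahr stood at the 20.6th to 27.8th percentile in these controls and at the 61.8th to 77.9th in hypoxia.

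**Figure D1:**
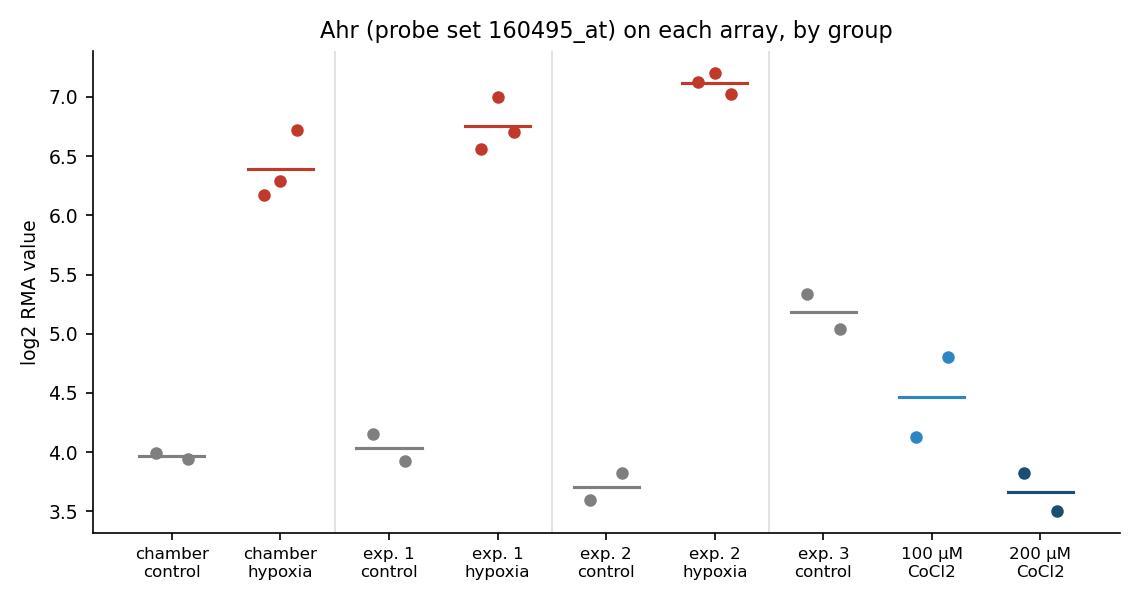
Log2 RMA value of the Ahr probe set on each of the 21 arrays (points) with the mean of each group (lines), for the chamber set and experiments 1 to 3. The 9 hypoxia arrays lie between 6.17 and 7.20, the 6 controls of the hypoxia sets between 3.59 and 4.15, the 2 controls of experiment 3 at 5.33 and 5.04, and the 4 CoCl2 arrays between 3.50 and 4.80.

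As differences from the controls of the same set, Ahr was 2.42 ± 0.18 log2 units higher in chamber hypoxia (SE of the linear model; 5.36-fold; 3 against 2 arrays), 2.71 ± 0.18 higher in experiment 1 (6.56-fold) and 3.41 ± 0.18 higher in experiment 2 (10.6-fold). The mean of the 3 sets was 2.85 ± 0.11 (7.20-fold), the 6th highest of 8251 genes. The test was passed by 23.0% of all genes for chamber hypoxia, by 18.3% for experiment 1 and by 15.3% for experiment 2, at an adjusted p under 0.05 with limma and Benjamini-Hochberg adjustment over all genes. For the mean of the sets 32.0% passed, 12.6% higher and 19.5% lower. These shares are printed as background only, since these contrasts chose Ahr. RMA compresses folds at low signal, so the low control level limits how well the fold is known.

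With CoCl2 the Ahr level ran the other way. The controls of experiment 3 stood at 5.33 and 5.04, the arrays at 100 µM at 4.12 and 4.80, and those at 200 µM at 3.82 and 3.50. No CoCl2 array reached either control, and the arrays of the lower dose lay above those of the higher dose. The difference from the controls was -0.72 ± 0.20 at 100 µM (1.65-fold lower) and -1.52 ± 0.20 at 200 µM (2.87-fold lower), with a mean of -1.12 ± 0.17 (2.18-fold lower) that ranked 424th from the lowest. Among all genes 38.4% passed the test at 100 µM and 42.0% at 200 µM, and 46.3% for the mean of both doses (23.3% higher, 23.0% lower). The value at 100 µM moved with 1 array: it was -0.39 without 100 µM array 1 and -1.06 without 100 µM array 2. In RNA from whole cultures, fewer cells with Ahr RNA and less Ahr RNA per cell cannot be told apart.

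The step between the doses was not itself used to choose Ahr and was tested, although the same CoCl2 arrays entered the choice through their difference from the controls. Ahr was lower at 200 µM than at 100 µM by -0.80 ± 0.20 log2 units (1.74-fold; 95% confidence interval -1.21 to -0.38; adjusted p = 0.0078, limma), in a comparison in which 16.7% of all genes passed. Both arrays at 200 µM lay below both at 100 µM. The call ended without 100 µM array 2 (-0.46, adjusted p = 0.11), without 200 µM array 2 (-0.64, adjusted p = 0.12), with array weights (adjusted p = 0.23) and with only the arrays of these groups in the fit (adjusted p = 0.17). The Actb measure of RNA quality was 2.36 and 2.16 at 100 µM and 1.47 and 0.50 at 200 µM, and with it as a covariate the step was -0.73 (adjusted p = 0.43).

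The size of the hypoxia effect on Ahr was compared between devices and between the incubator experiments. The choice of Ahr did not use these comparisons, although the same arrays entered it. The chamber effect was lower than the mean of the incubator effects by 0.64 ± 0.22 log2 units as measured, but this difference did not pass the test (-0.64, interval -1.10 to -0.18, adjusted p = 0.13, limma; 2.16% of all genes passed). It did pass with array weights (-0.61, adjusted p = 0.0079) and with only the arrays of the hypoxia sets (-0.64, adjusted p = 0.024). Each device was used in its own sets, so device and set cannot be told apart. Experiment 1 against experiment 2 gave -0.69 ± 0.26 (interval -1.23 to -0.16, adjusted p = 0.37; 0.327% of all genes passed), which did not pass either, except with array weights (-0.81, adjusted p = 0.046).

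The controls themselves differed in Ahr. The controls of experiment 3 (5.33 and 5.04) lay above all 6 controls of the hypoxia sets (3.59 to 4.15), with a difference of the means of 1.28 ± 0.16 (2.43-fold), the 6th highest of 8251 genes. These controls enter the lower value with CoCl2 that helped to choose Ahr, so this difference is also a description without a test; 31.5% of all genes differed between these controls. The CoCl2 arrays (3.50 to 4.80) overlapped the controls of the hypoxia sets. Set, culture and array run cannot be told apart here, and the Actb measure was 1.41 and 1.62 in the controls of experiment 3 against 0.22 to 0.50 in the others. With that measure as a covariate the difference in Ahr was 1.21.

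Ordered by the group mean, Ahr was highest in hypoxia of experiment 2 (7.12), followed by hypoxia of experiment 1 (6.75) and of the chamber (6.39). The controls of experiment 3 (5.19) came next and overlapped neither neighbour. The remaining groups were 100 µM CoCl2 (4.46), the controls of experiment 1 (4.04), of the chamber (3.97) and of experiment 2 (3.71), and 200 µM CoCl2 (3.66). Arrays overlapped between neighbours for hypoxia of experiment 1 and of the chamber, for 100 µM CoCl2 and the controls of experiment 1, for the controls of experiment 1 and of the chamber, and for the controls of experiment 2 and 200 µM CoCl2.

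Cyp1a1 encodes a monooxygenase that oxidises polycyclic aromatic hydrocarbons and is the textbook readout of receptor activity. The brighter of its probe sets (161831_at) showed no change that passed the test in any comparison. Its level was 4.63 and 4.66 in the chamber controls and 4.73, 4.76 and 4.83 in chamber hypoxia. Experiment 1 gave 4.68 and 4.84 for its controls and 4.64, 4.53 and 5.15 for hypoxia, and experiment 2 gave 4.90 and 4.65, then 4.70, 4.61 and 4.75. Controls and hypoxia arrays overlapped in experiments 1 and 2, and experiment 1 hypoxia array 3 was the highest of all arrays. The controls of experiment 3 read 4.42 and 4.55, the arrays at 100 µM 4.73 and 4.58, and those at 200 µM 4.83 and 4.63. All 4 CoCl2 arrays lay above both controls, the nearest of them only narrowly (4.58 at 100 µM against a control at 4.55).

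The mean hypoxia difference of Cyp1a1 was 0.02 ± 0.08 log2 units (95% interval -0.15 to 0.19, adjusted p = 0.91, limma), where Ahr was 2.85 higher in the same arrays. With CoCl2 it was 0.17 ± 0.15 at 100 µM (adjusted p = 0.37), 0.25 ± 0.15 at 200 µM (adjusted p = 0.19) and 0.21 ± 0.13 on average (interval -0.06 to 0.49, adjusted p = 0.19). The intervals leave room for a change of up to 0.19 log2 units in hypoxia and 0.49 with CoCl2. This probe set lay at the 36.5th percentile of all probe sets on average, and no detection call was used, so a level above background was not tested.

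The dimmer Cyp1a1 probe set (94715_at, 9.8th percentile) gave another picture. Its level was 2.45 and 2.47 in the chamber controls and 2.75, 2.70 and 2.55 in chamber hypoxia, 2.77 and 2.78 against 2.96, 3.00 and 3.31 in experiment 1, and 2.55 and 2.64 against 3.04, 2.86 and 3.18 in experiment 2. Within each set every hypoxia array lay above both controls. The mean hypoxia difference was 0.32 ± 0.07 log2 units (1.25-fold; adjusted p = 0.0015, limma over 10833 probe sets, of which 28.0% passed), made up of 0.21 in the chamber (adjusted p = 0.26), 0.32 in experiment 1 (adjusted p = 0.093) and 0.43 in experiment 2 (adjusted p = 0.021; 13.0% of probe sets passed). The call for experiment 2 alone ended without control 1 (0.39, adjusted p = 0.19), control 2 (0.48, adjusted p = 0.065), hypoxia array 1 (0.43, adjusted p = 0.058) or hypoxia array 3 (0.36, adjusted p = 0.10) of that experiment. With CoCl2 the difference was 0.09 ± 0.12 (adjusted p = 0.54), and the levels of 2.54 and 2.77 in controls, 2.72 and 2.73 at 100 µM and 2.88 and 2.65 at 200 µM overlapped. The probe sets of this gene therefore disagreed for hypoxia, and which of them reports the transcript was not tested.

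**Figure D2:**
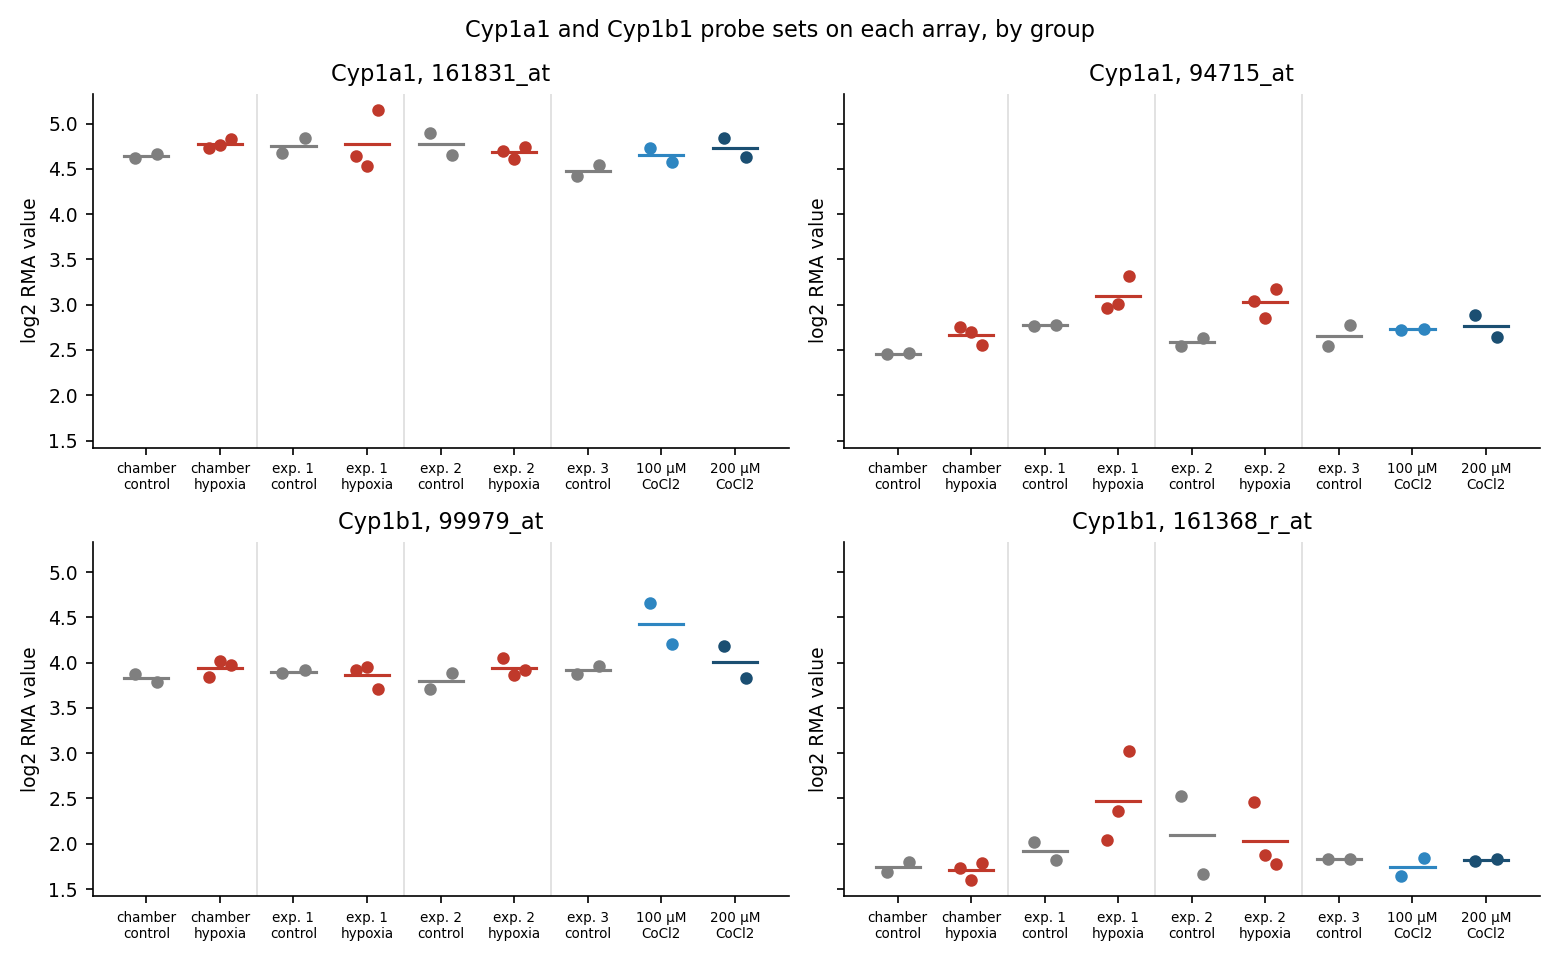
Log2 RMA value of the 4 Cyp1a1 and Cyp1b1 probe sets on each of the 21 arrays (points) with the mean of each group (lines), on 1 common axis. Probe set 94715_at of Cyp1a1 is higher in hypoxia than in the controls of each set, probe set 99979_at of Cyp1b1 is highest at 100 µM CoCl2 (4.65 and 4.21), and the other panels show overlapping groups or differences that did not pass the test.

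Cyp1b1 encodes a related monooxygenase that acts on oestradiol and aromatic hydrocarbons. In its brighter probe set (99979_at, 25.2th percentile) the 6 controls of the hypoxia sets spanned 3.71 to 3.92 with a median of 3.88, and the 9 hypoxia arrays 3.71 to 4.05 with a median of 3.92. These ranges overlapped, and the mean hypoxia difference was 0.07 ± 0.08 log2 units (95% interval -0.08 to 0.23, adjusted p = 0.54, limma). In experiment 3 the controls read 3.87 and 3.97, the arrays at 100 µM 4.65 and 4.21, and those at 200 µM 4.19 and 3.83. Both arrays at 100 µM lay above both controls, while the arrays at 200 µM lay on either side of them.

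Among all genes 38.4% passed at 100 µM and 16.7% passed for the step between the doses. Cyp1b1 rose at 100 µM by 0.51 ± 0.14 (1.43-fold, interval 0.21 to 0.81, adjusted p = 0.0082, limma). At 200 µM the difference was 0.09 ± 0.14 (adjusted p = 0.62), the mean of the doses was 0.30 ± 0.12 (adjusted p = 0.052; 0.41 and adjusted p = 0.0046 without 100 µM array 2, 0.39 and adjusted p = 0.015 without 200 µM array 2), and the step from 100 to 200 µM was -0.42 ± 0.14 (adjusted p = 0.049). The call at 100 µM ended without 100 µM array 1 (0.29, adjusted p = 0.20), without control 1 of experiment 3 (0.46, adjusted p = 0.070), and with the Actb measure as a covariate (0.18, adjusted p = 0.52). That covariate also turned the dose step to 0.15 (adjusted p = 0.83), and the step was lost without 100 µM array 1 (-0.20, adjusted p = 0.44) or 200 µM array 2 (-0.24, adjusted p = 0.45) and under most other settings, both scalings included (-0.39 each, adjusted p = 0.066 and 0.057). The other probe set of Cyp1b1 (161368_r_at, 0.5th percentile) ranged from 1.60 to 3.03 over all arrays and passed in no hypoxia or CoCl2 comparison with all arrays in the fit (in experiment 1 alone it passed without hypoxia array 1, at 0.77, adjusted p = 0.036), at 0.15 ± 0.14 for hypoxia (adjusted p = 0.50) and -0.05 ± 0.23 for CoCl2 (adjusted p = 0.85). At 100 µM it read -0.09 ± 0.26 (adjusted p = 0.80), so it did not show the change of the brighter set.

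Neither Cyp1a1 nor Cyp1b1 differed between devices (0.17 and 0.06 log2 units, adjusted p = 0.57 and 0.85) or between experiments 1 and 2 (0.11 and -0.19, adjusted p = 0.96 and 0.90) by an amount that passed. The controls of experiment 3, in which Ahr was 1.28 higher, read -0.24 ± 0.13 against the other controls for Cyp1a1 (adjusted p = 0.16) and 0.08 ± 0.12 for Cyp1b1 (adjusted p = 0.70).

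**Figure D3:**
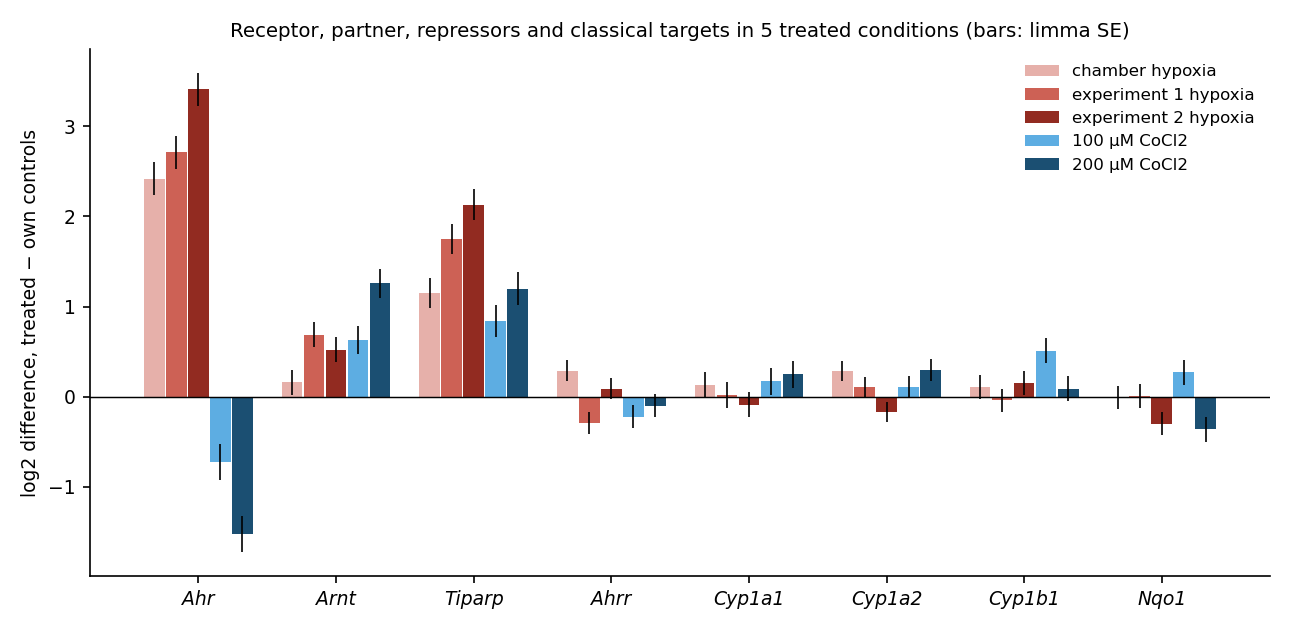
Log2 difference between treated arrays and the controls of the same set for the receptor (Ahr), its partner (Arnt), its repressors (Tiparp, Ahrr) and classical targets in 5 treated conditions; error bars are SEs of the linear model. Ahr runs from 3.41 in hypoxia of experiment 2 to -1.52 at 200 µM CoCl2, Tiparp is positive in all 5 conditions, and Cyp1a1 lies between -0.09 and 0.25.

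Of the receptor's partners and regulators, Arnt and Tiparp rose in hypoxia and with CoCl2. Arnt (probe set 92529_s_at) encodes the partner protein. Its log2 level was 5.89 and 5.98 in the chamber controls against 6.23, 5.97 and 6.10 in hypoxia, 6.05 and 6.04 against 6.70, 6.69 and 6.81 in experiment 1, and 5.99 and 6.12 against 6.33, 6.80 and 6.59 in experiment 2. Controls in experiment 3 read 5.54 and 5.90, followed by 6.2 and 6.51 at 100 µM and 6.81 and 7.16 at 200 µM. Only the chamber arrays overlapped their controls, and the CoCl2 arrays were ordered by dose. Arnt rose by 0.46 ± 0.08 in the mean of the hypoxia sets (adjusted p = 0.00013, limma), where the chamber alone gave 0.16 (adjusted p = 0.42), and by 0.95 ± 0.14 with CoCl2 (adjusted p = 6.4e-06).

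The Arnt rise was 0.49 ± 0.16 larger with CoCl2 than in hypoxia (adjusted p = 0.026; 25.4% of all genes passed), and 0.63 ± 0.16 larger at 200 µM than at 100 µM (adjusted p = 0.0074). Ahr differed by -3.97 between the treatments, the 2nd lowest of all genes, so receptor and partner were apart in opposite senses. The CoCl2 minus hypoxia call of Arnt ended without control 1 of experiment 3 (0.31, adjusted p = 0.28) or 200 µM array 2 (0.41, adjusted p = 0.061), and the dose call without 100 µM array 1 (0.48, adjusted p = 0.073) or 200 µM array 2 (0.46, adjusted p = 0.14) and with the Actb covariate (0.14, adjusted p = 0.87). A dim probe set of Arnt (97185_at, 6.1th percentile) read 0.02 ± 0.06 for hypoxia (adjusted p = 0.86) and 0.02 ± 0.10 for CoCl2 (adjusted p = 0.87).

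Tiparp encodes a mono-ADP-ribosyltransferase that is induced by the receptor and represses it. Its level was 7.63 to 7.84 in the 6 controls of the hypoxia sets (median 7.73) and 8.89 to 9.85 in the 9 hypoxia arrays (median 9.45). Controls in experiment 3 read 8.18 and 7.99, followed by 8.45 and 9.41 at 100 µM and 9.26 and 9.32 at 200 µM. No treated array overlapped its controls, and the arrays at 100 µM were far apart. Tiparp rose by 1.15 ± 0.17 in the chamber (adjusted p = 3.1e-05), 1.75 ± 0.17 in experiment 1 (adjusted p = 1.4e-07) and 2.13 ± 0.17 in experiment 2 (adjusted p = 6.0e-09). With CoCl2, where Ahr was lower than in the controls, Tiparp rose by 0.84 ± 0.18 at 100 µM (adjusted p = 0.0012) and 1.2 ± 0.18 at 200 µM (adjusted p = 1.6e-05).

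The Tiparp rise was smaller with CoCl2 than in hypoxia by -0.65 ± 0.19 (adjusted p = 0.013), a call that ended without control 1 of experiment 3 (-0.56, adjusted p = 0.12). It was also smaller in the chamber than in the incubator (-0.79 ± 0.21, adjusted p = 0.049), and that call ended when any 1 of the 15 arrays of these sets was left out. The rise at 100 µM was 0.36 without 100 µM array 2 (adjusted p = 0.026) and 1.32 without 100 µM array 1 (adjusted p = 6.4e-08), and it did not pass with only the compared arrays in the fit (adjusted p = 0.12).

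Ahrr, the receptor repressor, read 0.03 ± 0.07 for hypoxia (adjusted p = 0.81) and -0.16 ± 0.12 for CoCl2 (adjusted p = 0.27), at levels from 3.57 to 4.11. Of 17 genes listed for the receptor complex and its regulators 12 were measured; in hypoxia 3 rose (Arnt, Tiparp and the retinoblastoma gene Rb1) and 1 fell (the acetyltransferase gene Crebbp, -0.46, adjusted p = 0.00013). With CoCl2 3 rose (Arnt, Tiparp and the kinase gene Src, 0.35, adjusted p = 0.033) and again Crebbp fell (-0.78, adjusted p = 7.3e-05). The medians were 0.12 for hypoxia and 0.16 for CoCl2, where all genes had 0.011 and 0.115. The 33.3% of the list that passed in each, in either direction, stood beside 32.0% and 46.3% of all genes. By direction, 12.6% of all genes rose and 19.5% fell in hypoxia, and 23.3% rose and 23.0% fell with CoCl2. Rb1 rose by 0.38 in hypoxia (adjusted p = 0.0028). The chaperone gene Hsp90aa1 read 0.16 and 0.25 (adjusted p = 0.086 and 0.080) and the coactivator gene Ncoa1 0.15 and 0.16 (adjusted p = 0.059 and 0.19).

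Of 27 genes listed as receptor targets 23 were measured. In hypoxia 6 rose, 1 fell and 16 did not pass (median 0.06), and with CoCl2 5 rose, 3 fell and 15 did not pass (median 0.19). Taken in either direction, these shares (30.4% and 34.8%) lay at or below those of all genes (32.0% and 46.3%). By direction, 12.6% of all genes rose and 19.5% fell in hypoxia, and 23.3% rose and 23.0% fell with CoCl2. Rises in hypoxia thus made up more of the list than of all genes, and falls less, which was not tested. Besides Tiparp, the genes that rose in hypoxia were the transcription factor genes Fos (2.14), Jun (1.11) and Nfe2l2 (0.35) and the cell cycle inhibitor genes Cdkn1a (1.85) and Cdkn1b (0.58), and the amino acid transporter gene Slc7a5 fell (-0.97). Each of these genes also has well-known regulators other than the receptor. Among the detoxifying enzymes, which are the best known targets, none of Cyp1a1, Cyp1b1, Cyp1a2 (0.08, adjusted p = 0.41), Nqo1 (-0.10, adjusted p = 0.36) and Gsta2 (-0.13, adjusted p = 0.25) passed in hypoxia as represented by their brightest probe set.

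With CoCl2 the genes that rose were Tiparp, Jun (1.57, adjusted p = 1.0e-10), Cdkn1a (1.68, adjusted p = 1.3e-05), the cytokine gene Il6 (0.40, adjusted p = 0.0040) and the glutathione transferase gene Gsta1 (0.30, adjusted p just under the threshold). Gsta2, another glutathione transferase gene, fell (-0.86, adjusted p = 1.9e-05), as did Slc7a5 (-1.36, adjusted p = 1.9e-09) and Nfe2l2 (-0.29, adjusted p = 0.048). Nqo1, a quinone reductase gene, read -0.05 on average (adjusted p = 0.77), and Cyp1a2, the liver relative of Cyp1a1, 0.21 (adjusted p = 0.10), although at 200 µM alone Cyp1a2 rose by 0.30 (adjusted p = 0.047). Fos differed most between the treatments, at 2.14 in hypoxia (adjusted p = 1.3e-09) and -0.65 with CoCl2 (adjusted p = 0.058; difference -2.78, adjusted p = 1.1e-06), while a further Fos probe set read 0.08 and 0.10 and passed in neither. Without 100 µM array 2 or 200 µM array 1 Fos did pass with CoCl2 (-1.01 and -0.80, adjusted p = 3.0e-04 and 0.031). The count of 5 that rose with CoCl2 was larger without 100 µM array 2, a fit that leaves 1 array at that dose. The share of all genes called in that fit was not counted.

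Of 10 enzymes of the kynurenine route, which makes receptor ligands from tryptophan, 4 were measured. In hypoxia 0 rose, 1 fell and 3 did not pass, and with CoCl2 1 rose, 1 fell and 2 did not pass. In either direction 32.0% and 46.3% of all genes passed. By direction, 12.6% of all genes rose and 19.5% fell in hypoxia, and 23.3% rose and 23.0% fell with CoCl2. Whether these 4 genes differed from all genes as a set was not tested. Kyat3, a kynurenine aminotransferase gene, fell by -0.38 in hypoxia (adjusted p = 1.0e-04) and by -0.37 with CoCl2 (adjusted p = 0.0091). Ido1, which opens the route, read 0.03 in hypoxia (adjusted p = 0.88) and rose by 0.49 with CoCl2 (adjusted p = 0.010), but its other probe set did not pass (0.23, adjusted p = 0.10). Aadat (0.14 and 0.18) and Tdo2 (0.03 and 0.01) passed in neither treatment. Without control 1 of experiment 3 neither Kyat3 (-0.27, adjusted p = 0.16) nor Ido1 (0.42, adjusted p = 0.11) passed with CoCl2.

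The bHLH-PAS family, to which the receptor, its partner and the HIF subunits belong, had 18 of 22 members measured under the symbols listed. Arntl, listed under its other symbol Bmal1, was on the array but is missing from these counts. It read 0.55 in hypoxia and 0.51 with CoCl2, and its test is not given here. In hypoxia Arnt and the clock gene Per1 (0.52, adjusted p = 0.0019) rose, and 15 of the 18 counted members did not pass. With CoCl2 6 members rose, among them Arnt, Per1 (0.88, adjusted p = 0.0014), the HIF subunit genes Epas1 (0.32, adjusted p = 0.034) and Hif3a (0.32, adjusted p = 0.033), and the developmental factor gene Sim1 (0.36, adjusted p = 0.026), whose call ended without control 2 of experiment 3 (0.19, adjusted p = 0.34), 100 µM array 1 (0.31, adjusted p = 0.065) or 200 µM array 2 (0.32, adjusted p = 0.054). Hif1a read 0.04 and -0.27 (adjusted p = 0.79 and 0.11), and it did pass with CoCl2 without 100 µM array 2 (-0.41, adjusted p = 0.0061) or 200 µM array 1 (-0.37, adjusted p = 0.034). The circadian factor gene Npas2 read 0.07 and 0.31 (adjusted p = 0.65 and 0.087). Of the 18 counted members, Ahr included although these contrasts chose it, 16.7% passed in hypoxia and 38.9% with CoCl2. In either direction 32.0% and 46.3% of all genes passed. By direction, 12.6% of all genes rose and 19.5% fell in hypoxia, and 23.3% rose and 23.0% fell with CoCl2. The count of 6 with CoCl2 was smaller without control 1 or control 2 of experiment 3 or without 100 µM array 1. Each of these fits leaves 1 array in a group, and its share of all genes called was not counted.

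In all, 136 genes (1.65% of 8251) were called higher in the hypoxia mean and lower in the CoCl2 mean. Ahr is counted among these 136 genes, but its place follows from the values that chose it and is no result. They made up 13.1% of the genes higher in hypoxia and 7.15% of those lower with CoCl2, while 47 genes had the opposite pattern. Within the 136, which share with Ahr the values that chose it, Ahr had the largest gap between the treatments (3.97 log2 units), ahead of the matricellular gene Ccn2, the protease gene Prss23, the cytokinesis gene Anln, the phosphatase gene Dusp6 and the integrin gene Itga4. By the root mean square difference over the 5 treated conditions, the genes most like Ahr were Cnn2 (calponin 2, 0.64 log2 units), Vcl (vinculin, 0.80), Ccn2 (0.87), Ugp2 (a UDP-glucose enzyme, 1.06) and Fos (1.12). Of these 5 genes 2 (Ugp2 and Cnn2) were also among the 5 most like Ahr by correlation over the 21 arrays, and 0 were among the 5 by correlation over the 5 differences, so the choice of genes depends on the measure.

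Side by side, Cnn2 read 1.85, 3.05 and 2.65 in the hypoxia sets and -0.58 and -0.51 at the doses of CoCl2, and Ugp2 read 1.60, 1.41 and 1.62 and then -0.58 and -1.58. Cnn2 thus had hypoxia values of the size of those of Ahr with a smaller and flat value with CoCl2, and Ugp2 had the step between doses with smaller values in hypoxia. Vcl read -0.41 and -0.04 with CoCl2, and a further Vcl probe set read 1.32 for hypoxia and 0.37 for CoCl2, so its likeness rests on 1 probe set.

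**Figure D4:**
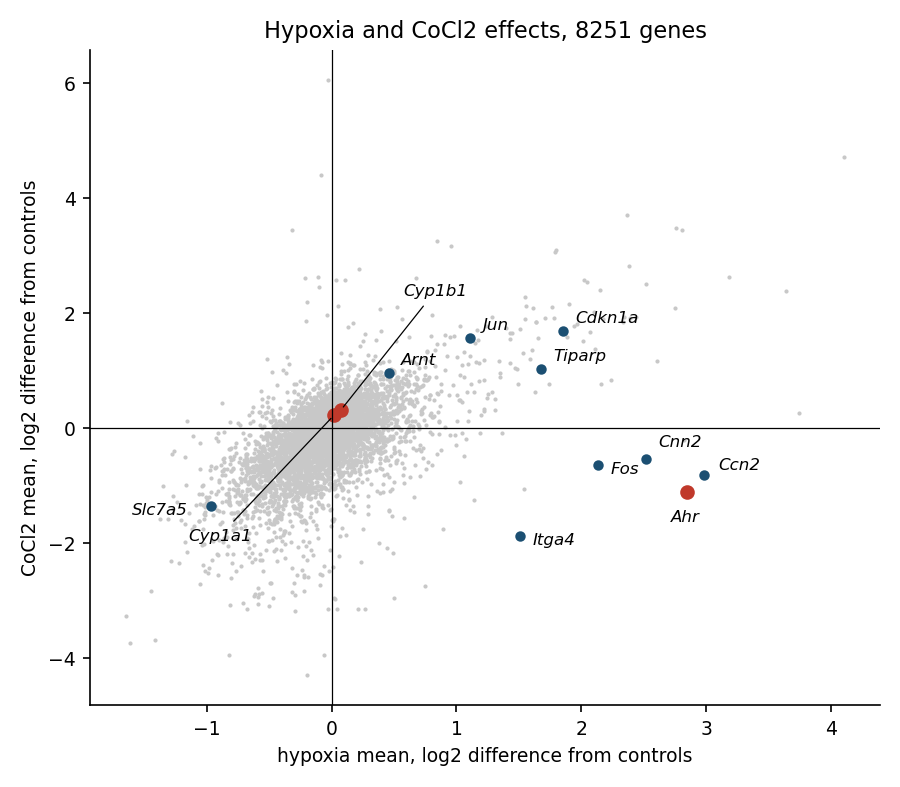
Mean log2 difference with CoCl2 (vertical axis) against that in hypoxia (horizontal axis) for 8251 genes, with Ahr, Cyp1a1 and Cyp1b1 in red and other named genes in dark blue. Ahr lies at 2.85 and -1.12 in the lower right, near Ccn2, Cnn2 and Fos, while Cyp1a1 (0.02 and 0.21) and Cyp1b1 (0.07 and 0.30) lie in the centre of all genes.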

How the data were processed

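RNA was measured on Affymetrix U74Av2 arrays. The authors deposited 1 log2 value for each probe set on each array. GCOS 1.2 and RMA are named in the submitters' processing notes. The RMA version, the probe definition and a single run over all arrays were not stated there. No detection calls or intensities before RMA were used. Of 12488 probe sets, 66 controls, 396 naming several genes and 1193 unnamed here were left out; 10817 of 10833 single-gene probe sets were matched to current symbols. The probe set with the highest mean represented a gene.

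All 21 arrays entered 1 limma 3.58.1 model of 9 group means (R 4.3.3; 12 residual degrees of freedom), with two-sided tests and Benjamini-Hochberg adjustment over 8251 genes (10833 for further probe sets), called at an adjusted p under 0.05. The script was tested on simulated data. The hypoxia and CoCl2 means weight sets and doses equally. Members and lists were chosen with earlier results of these data known, so no list is independent evidence. Up to 6 genes a list were named by their largest treated minus control difference, plus Arnt, Ahrr, Tiparp, Nqo1, Cyp1a2 and Hif1a (1 gene of this rule is not reported here); Src, Nfe2l2, Cdkn1b, Gsta1, Il6, Epas1 and Hif3a were named after their values were seen. The test of Ahr between controls was planned but is given as a description, since those controls helped to choose Ahr. Alternatives covered scaling, filtering, probe sets, moderation, weights, a replicate block, the arrays fitted, the Actb 3′ minus 5′ covariate and leaving out each array.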

Additional observations from a re-analysis of the deposited data

Results flagged for a closer look

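The following results concern members and genes named by the rule, which took the largest treated minus control differences. They differed between treatments, doses or devices by a test of the difference itself (limma, adjusted over 8251 genes), except the first. Among all genes 25.4% passed between CoCl2 and hypoxia, 16.7% between the doses and 2.16% between the devices. Ahr was above its controls in each hypoxia array and below them in each CoCl2 array, with a difference of -3.97 log2 units between the treatments; this difference was not tested, because it chose Ahr.

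Between CoCl2 and hypoxia, the differences that passed were -0.65 for Tiparp (adjusted p = 0.013), 0.49 for Arnt (0.026), -2.78 for Fos (1.1e-06), 0.46 for Jun (0.0095), -0.40 for Slc7a5 (0.029) and -0.73 for Gsta2 (0.0014). Of the genes named after their values were seen, Il6 (0.41, adjusted p = 0.016), Nfe2l2 (-0.64, adjusted p = 0.0016) and Epas1 (0.40, adjusted p = 0.042) passed as well. Of the first 6 genes, Tiparp, Arnt, Jun (0.43, adjusted p = 0.074) and Slc7a5 (-0.28, adjusted p = 0.25) lost the call without control 1 of experiment 3. Slc7a5 also lost it without control 2 of experiment 2 (-0.34, adjusted p = 0.053), without 100 µM array 1 (-0.35, adjusted p = 0.061) and without 200 µM array 1 (-0.32, adjusted p = 0.068).

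Between 200 and 100 µM CoCl2, the steps that passed were -0.80 for Ahr (adjusted p = 0.0078), -0.42 for Cyp1b1 (0.049), 0.63 for Arnt (0.0074), 0.54 for Hsp90aa1 (0.0077), -0.66 for Ncoa1 (0.00041), -1.16 for Fos (0.014), 1.47 for Cdkn1a (0.0013), -0.63 for Slc7a5 (0.0016), 1.52 for Per1 (0.00011) and -0.62 for Nqo1 (0.0041). The Cyp1b1 step lost the call under most other settings and without 1 of 2 arrays, 100 µM array 1 (-0.20, adjusted p = 0.44) or 200 µM array 2 (-0.24, adjusted p = 0.45). With the Actb measure as a covariate Cdkn1a turned to -0.29 (adjusted p = 0.78), and Per1 was 0.23 (adjusted p = 0.81). Fos lost the call without 100 µM array 2 (-0.43, adjusted p = 0.26) or 200 µM array 2 (-0.85, adjusted p = 0.20), and Hsp90aa1 without 200 µM array 1 (0.34, adjusted p = 0.11).

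Between chamber and incubator hypoxia, the differences were -0.79 for Tiparp (adjusted p = 0.049) and 0.81 for Jun (0.0045), which lost the call without chamber control 1 (0.76, adjusted p = 0.066) or chamber control 2 (0.85, adjusted p = 0.051).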

How the results depend on the processing

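With 12 other settings, 1150 of the values compared kept their direction and side of the threshold, 56 lost the call, 14 gained it, 17 moved and 25 turned; of those with 1 array left out, 1125 were kept, 48 lost, 17 gained, 11 moved and 34 turned. The 12 settings include the other measures of likeness to Ahr. For counts and untested Ahr values no threshold applies, so they were kept if they moved little. For Ahr that meant the same direction and a move under its residual SD of 0.234. The description of Ahr ranged from 2.82 to 2.85 for the hypoxia mean and from -1.23 to -1.12 for the CoCl2 mean over the other settings. Leaving out dim genes removed Ahr and the Cyp1 genes, which then have no value, so the ranges of Ahr do not cover that setting. Apart from the removal of dim genes, the cause of the changes below was not tested. Precision is limited by 2 or 3 arrays a group and by the low signal of the Cyp1 probe sets. Centring moved the all-gene median with CoCl2 from 0.115 to 0.091 (median centring) or 0.080 (quantile normalisation).

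The step of Ahr between doses lost the call with array weights (-0.80), the Actb covariate (-0.73) and only the compared arrays (-0.80), and its device and experiment differences gained it as given (-0.61, -0.64 and -0.81). Cyp1b1 at 100 µM lost it with the mean of probe sets (0.21), array weights (0.51), the covariate (0.18) and only the compared arrays (0.51). The Cyp1b1 dose step lost it with median centring (-0.39), quantile normalisation (-0.39), all probe sets tested (-0.42), the mean of probe sets (-0.17), trend and robust moderation (-0.42), array weights (-0.42) and only the compared arrays (-0.42), and turned with the covariate (0.15).

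Values near 0 turned as follows. With array weights Cyp1a1 was -0.02 in experiment 1 and 0.00 in the hypoxia mean. With the mean of probe sets Cyp1a1 was 0.17 in experiment 2 and 0.00 for device and experiments, and Cyp1b1 was 0.26 in experiment 1, -0.11 for device, 0.22 for experiments and -0.01 between controls, and Tdo2 was -0.04 in hypoxia. With the covariate Cyp1b1 was 0.02 in experiment 1 and -0.46 between controls, Cyp1a1 probe set 94715_at was -0.09 at 100 µM, and the Cdkn1a dose step was -0.29. With quantile normalisation Cyp1b1 was -0.02 at 200 µM and -0.07 for device, 94715_at -0.04 at 100 µM and -0.02 for the CoCl2 mean, and Tdo2 -0.12 with CoCl2. With median centring Cyp1b1 was -0.01 for device and Tdo2 -0.01 with CoCl2.

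The counts that moved were 6 higher regulators in hypoxia with array weights and 6 with only the compared arrays, 2 lower regulators with CoCl2 after quantile normalisation, and 3 higher targets with CoCl2 without dim genes and 3 with only the compared arrays. Lower kynurenine enzymes were 0 in hypoxia and 0 with CoCl2 without dim genes, and 0 with CoCl2 with only the compared arrays. Higher bHLH-PAS genes in hypoxia were 5 with array weights and 5 with only the compared arrays, and with CoCl2 3 without dim genes, 2 with array weights and 1 with only the compared arrays. Lower bHLH-PAS genes with CoCl2 were 2 after quantile normalisation and 0 without dim genes. In the counts without dim genes, Ahr and Kyat3 were among the genes removed. The share of all genes called was not counted under these settings, so the moved counts have no background beside them.

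With 1 array left out at a time, Ahr ranged from -1.06 to -0.39 at 100 µM and from -1.14 to -0.46 for the dose step. Cyp1a1 ranged from -0.17 to 0.14 in experiment 1, -0.22 to 0.03 in experiment 2, -0.04 to 0.06 in the hypoxia mean, -0.03 to 0.18 for the dose step and -0.08 to 0.23 between experiments. Cyp1b1 ranged from -0.09 to 0.04 in experiment 1, 0.29 to 0.74 at 100 µM, -0.09 to 0.27 at 200 µM, 0.19 to 0.41 in the CoCl2 mean and -0.64 to -0.20 for the dose step. Probe set 94715_at ranged from 0.36 to 0.52 in experiment 2, -0.04 to 0.18 at 100 µM, -0.01 to 0.23 at 200 µM and -0.02 to 0.20 in the CoCl2 mean, and 161368_r_at from -0.09 to 0.02 in the chamber, 0.28 to 0.77 in experiment 1, -0.49 to 0.37 in experiment 2 and -0.19 to 0.00 at 100 µM. The Tiparp dose step ranged from -0.12 to 0.85, Rb1 with CoCl2 from -0.05 to 0.36, Ido1 in hypoxia from -0.05 to 0.10, Tdo2 from 0.00 to 0.06 in hypoxia and -0.09 to 0.12 with CoCl2, Npas2 in hypoxia from -0.04 to 0.18, Ahrr in hypoxia from 0.00 to 0.07 and Nqo1 with CoCl2 from -0.14 to 0.05. With CoCl2 the counts ranged from 4 to 11 higher targets, 0 to 1 higher and 0 to 1 lower kynurenine enzymes, and 2 to 9 higher and 1 to 3 lower bHLH-PAS genes. Calls were gained without 1 array for Hsp90aa1 (hypoxia without experiment 1 hypoxia array 3, 0.19, or experiment 2 control 2, 0.21; CoCl2 without 200 µM array 2, 0.35), Ncoa1 (hypoxia without experiment 1 control 2, 0.18, or hypoxia array 1, 0.18), and, with CoCl2, Rb1 (without 100 µM array 1, 0.36), Npas2 (without 100 µM array 2, 0.36, or 200 µM array 2, 0.39) and Cyp1a2 (without 100 µM array 2, 0.25); the Tiparp dose step passed without 100 µM array 2 (0.85).

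Replicate numbers are shared between groups, but 75 pairs of arrays with the same number correlated from -0.37 to 0.379 in their deviations (median 0.0187), 12 above 0.1, and 9 of 21 arrays correlated best with their own number, so the numbers were not taken as a pairing. With a replicate block 2342 in place of 2642 genes were called for the hypoxia mean and 3718 in place of 3820 for the CoCl2 mean. The block gave -0.06 for Cyp1a1 in experiment 1 and -0.06 in the hypoxia mean, -0.42 (adjusted p = 0.059) for the Cyp1b1 dose step, 0.00 for Hif1a in hypoxia, -0.39 (adjusted p = 0.055) for Slc7a5 between treatments and -0.79 (adjusted p = 0.057) for Tiparp between devices.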
